A study of Homo sapiens with 15 samples.

Results

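FGF receptors and the genes of their Sprouty and SPRED feedback inhibitors were followed by RNA sequencing of total RNA from PATU-8988T, a human line grown from a pancreatic cancer. The 10 genes were FGFR1, FGFR2, FGFR3, FGFR4 and FGFRL1 on the receptor side and SPRY1, SPRY2, SPRY4, SPRED1 and SPRED2 on the inhibitor side, out of 58676 genes in the count table. They were picked by name, because FGFR3 stood among the strongest increases after 24 h of YKL-5-124. Values of the comparison of YKL-5-124 24 h with DMSO, and of FGFR3 in any comparison that uses the YKL-5-124 24 h libraries, are therefore a description without a test. All 10 genes passed the filter on low counts, as did 14461 genes in all. A difference is called, or passes, at an adjusted p under 0.05.

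The 15 libraries formed 5 groups of 3: 100 nM YKL-5-124 for 24 h, 100 nM YKL-5-124 for 4 h, 100 nM THZ1 for 24 h, 100 nM THZ1 for 4 h, and 0.1% DMSO as the solvent control. Both compounds are described by the submitters as inhibitors of CDK7, the kinase of the transcription factor TFIIH, and THZ1 is also known to act on CDK12 and CDK13. No time is given for the DMSO libraries, which were the control at 4 h and at 24 h, so time in culture and time of treatment cannot be told apart. The labels number the replicates without naming separate cultures, so a p-value here reflects only how far these samples spread, which may be technical.

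FGF receptors are tyrosine kinases at the cell surface. When an FGF ligand binds together with heparan sulfate, the receptors phosphorylate the adaptor FRS2, and GRB2 and SOS then load RAS with GTP and start the RAF, MEK and ERK cascade. ERK activity induces the mRNAs of its own inhibitors, among them the Sprouty proteins, which interrupt signalling between receptor and RAS, and the SPRED proteins, which bring the RAS inactivator neurofibromin to the membrane. FGFRL1 binds FGFs but lacks the kinase domain of the other receptors. Sprouty mRNAs are short-lived in many cells and are commonly read as a measure of pathway output.

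The libraries held 15567057 to 22869590 counts. The THZ1 24 h libraries stood apart in composition: ribosomal protein mRNAs took 20.8% to 23.1% of their counts, against 9.04% to 11.6% in DMSO, and their TMM scaling factors were 0.532 to 0.559, against 1.15 to 1.27 in DMSO. Levels are given as CPM, counts scaled by library size and TMM factor, a scaling which assumes that most genes do not change, and fold changes are on that scale unless another is named. Taken over all genes, the median log2 fold change for THZ1 24 h over DMSO was −0.37 under TMM, −0.04 under RLE factors, 0.03 under upper-quartile factors, −1.49 under library totals and −2.55 with ribosomal protein counts as the library size. For THZ1 4 h over DMSO it was 0.00 under TMM, −0.25 under library totals and −0.51 with ribosomal protein counts. For YKL-5-124 24 h over DMSO it was −0.04, 0.11 and 0.54 in that order of scalings. Of the markers checked, KRT8, KRT18, EPCAM, VIM, ZEB1 and CDH2 were expressed in every library, whereas the ductal keratin KRT19 had 0 to 2 counts and KRT7 and CDH1 stayed below 1.69 TPM. The acinar genes PRSS1 and CPA1, the islet genes INS and GCG and the T cell gene CD3E had 0 counts in every library, and of the stromal, endothelial and leukocyte genes COL1A1, the highest, reached 1.16 TPM.

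The start regions of 4 of the genes are shown because FGFR3 and FGFR4 differed in opposite directions between the compounds at 24 h, while SPRY1 and SPRY2 had the largest falls at 4 h of THZ1. Each line holds the 250 bases before the RefSeq start (GRCh38.p14, coding strand, 5′ to 3′), at chr4:1793043-1793292 (+) for FGFR3, chr5:177086665-177086914 (+) for FGFR4, chr4:123396545-123396794 (+) for SPRY1 and chr13:80341127-80341376 (−) for SPRY2. Capitals mark GGGCGG, the core of the GC box bound by SP/KLF factors, or its reverse complement.
FGFR3: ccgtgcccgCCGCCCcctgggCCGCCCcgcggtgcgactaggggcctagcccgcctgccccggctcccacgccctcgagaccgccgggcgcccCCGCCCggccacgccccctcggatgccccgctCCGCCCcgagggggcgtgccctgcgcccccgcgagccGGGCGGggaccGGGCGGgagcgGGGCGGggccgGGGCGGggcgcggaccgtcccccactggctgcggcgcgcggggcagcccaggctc
FGFR4: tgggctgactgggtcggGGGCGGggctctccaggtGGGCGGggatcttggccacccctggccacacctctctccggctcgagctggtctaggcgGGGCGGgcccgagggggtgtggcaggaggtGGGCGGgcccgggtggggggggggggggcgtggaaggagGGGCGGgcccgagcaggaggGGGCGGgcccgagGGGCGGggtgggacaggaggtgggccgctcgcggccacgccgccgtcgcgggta
SPRY1: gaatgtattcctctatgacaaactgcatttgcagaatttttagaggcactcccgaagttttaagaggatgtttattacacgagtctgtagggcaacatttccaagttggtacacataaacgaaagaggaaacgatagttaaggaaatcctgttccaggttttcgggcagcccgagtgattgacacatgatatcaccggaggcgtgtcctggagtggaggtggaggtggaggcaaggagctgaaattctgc
SPRY2: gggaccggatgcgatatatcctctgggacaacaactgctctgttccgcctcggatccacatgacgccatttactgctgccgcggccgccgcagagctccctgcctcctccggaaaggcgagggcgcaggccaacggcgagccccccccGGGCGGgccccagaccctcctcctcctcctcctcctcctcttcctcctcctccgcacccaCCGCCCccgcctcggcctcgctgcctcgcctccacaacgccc
The letters GGGCGG, searched on both strands, occurred 8 times before FGFR3, 7 times before FGFR4, 2 times before SPRY2 and 0 times before SPRY1. They occurred at least once in 42.6% of the 35116 RefSeq promoters of that length. Of the 9 genes of the set with an entry, 7 held it, with 4 copies before FGFRL1, 3 before FGFR2, 1 before SPRY4, 1 before SPRED1 and 0 before SPRED2. The FGFR3 window was 86.8% G or C, which placed it at percentile 99.8 of all promoters. FGFR4 stood at percentile 96.3 and FGFR2 and SPRED1 at 94.8, and the remaining windows lay between 23.2 (SPRY1) and 80.1 (SPRY2). The AP-1 letters TGANTCA were found in none of the 9 windows on either strand and in 6.57% of all promoters. The ETS letters CCGGAAG were found in none of the 9 and in 8.52% of all. The TATA box letters TATAAA were found in none of the 9 and in 10.7% of all. A match in letters is not a site shown to be bound.

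In DMSO, the genes were ordered by TPM, a level corrected for gene length and library total. SPRY2 stood first at 44.4 ± 1.02 TPM (SD, n = 3 libraries, as for each mean here), and FGFR1 was the most abundant receptor at 30.9 ± 14.5 TPM. SPRED2 (17.0 TPM), SPRED1 (16.1 TPM), FGFR4 (11.3 TPM), FGFRL1 (11.2 TPM) and SPRY4 (10.5 TPM) followed. SPRY1 at 1.95 ± 0.258 TPM, FGFR3 at 1.55 ± 0.649 TPM and FGFR2 at 1.00 ± 0.0401 TPM came last. Neighbours in this order overlapped in their libraries except SPRED1 with FGFR4 and SPRY4 with SPRY1, so the set fell into a group of 7 genes above 4 TPM and a group of 3 below 3 TPM.

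**Figure D1:**
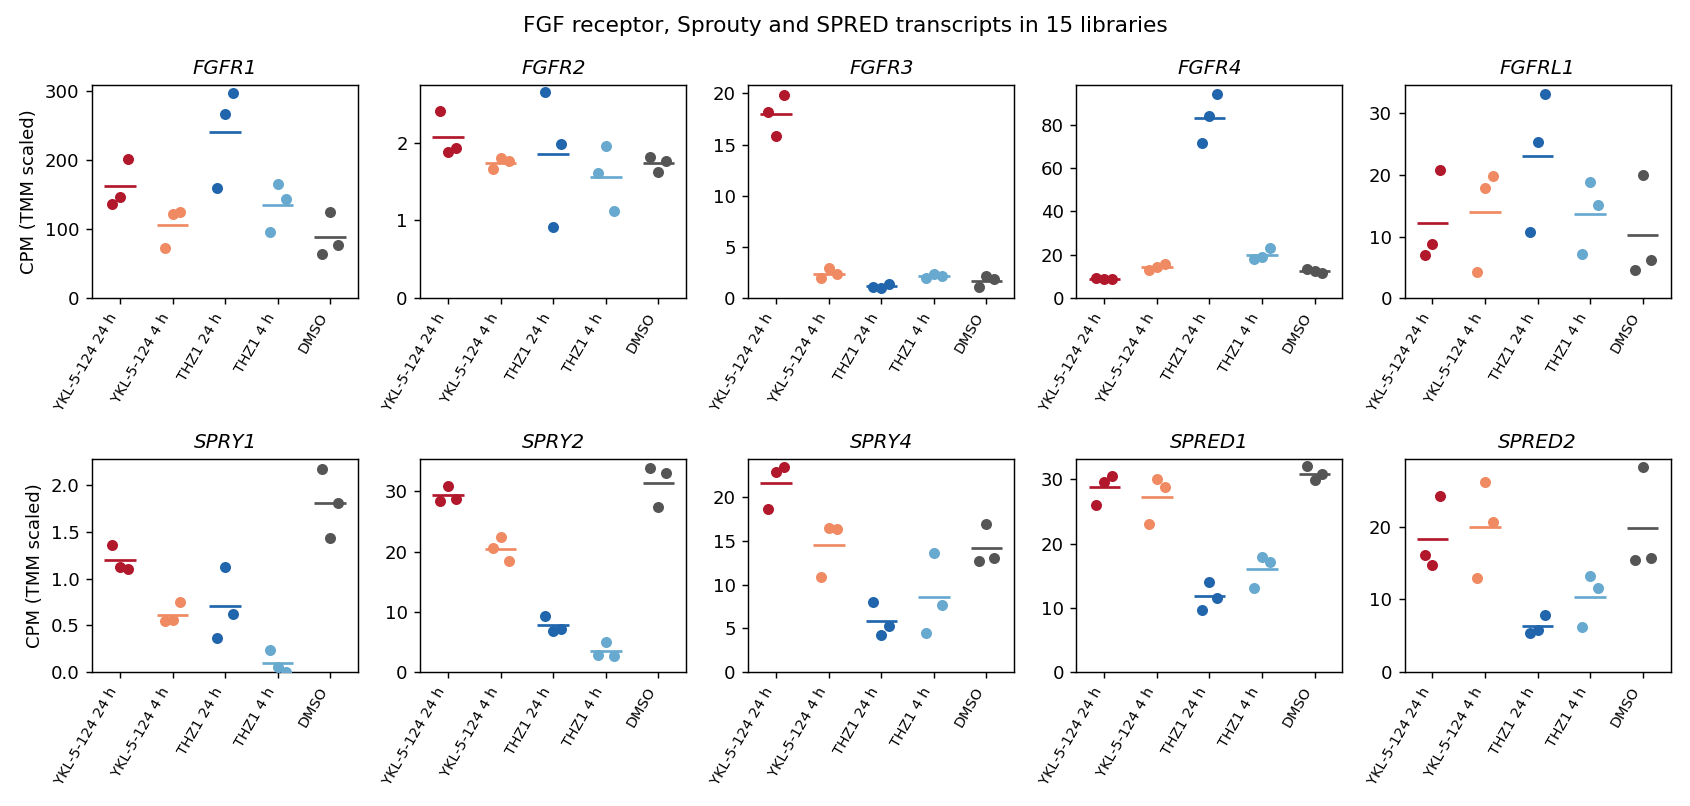
CPM (TMM scaled, y axis, each panel from 0) of the 10 genes in each of the 15 libraries (points) and the mean of each group (lines). FGFR3 is at 15.9 to 19.9 CPM in the YKL-5-124 24 h libraries and at most 2.91 CPM in the other groups, FGFR4 is at 71.7 to 94.0 CPM in the THZ1 24 h libraries, and SPRY2 is lowest in the THZ1 libraries.

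FGFR3 (chromosome 4, 1793307 to 1808872, plus strand, GRCh38), a receptor known for activating mutations in skeletal dysplasias and bladder cancer, was a low-level transcript in every group except YKL-5-124 24 h. It had 18.2, 15.9 and 19.9 CPM in the YKL-5-124 24 h libraries, against 1.07, 2.21 and 1.85 CPM in the DMSO libraries. The raw counts behind these levels were 519, 381 and 504 after YKL-5-124, against 24, 57 and 44 in DMSO. All 3 treated libraries lay above all controls, and the described log2 fold change was 3.38 ± 0.24 (SE), a 10.4-fold difference. It ranged from 3.38 to 3.96 over the other settings with all libraries and from 3.14 to 3.61 when 1 library was left out.

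At 4 h of YKL-5-124, FGFR3 had 1.94, 2.91 and 2.38 CPM, which overlapped DMSO, and differed from it by 0.49 ± 0.24 on the log2 scale (quasi-likelihood F test of edgeR, Benjamini-Hochberg adjusted p = 0.556 over all genes). The level after 24 h of YKL-5-124 was 7.44-fold that after 4 h, again a description. After THZ1, the other compound, FGFR3 had 1.09, 1.02 and 1.36 CPM at 24 h and 1.99, 2.39 and 2.14 CPM at 4 h, and neither time passed the test against DMSO. Its log2 fold change was −0.57 ± 0.30 for THZ1 24 h over DMSO (edgeR adjusted p = 0.0952) and 0.34 ± 0.25 for THZ1 4 h over DMSO (edgeR adjusted p = 0.294). At 24 h the THZ1 libraries held only 9, 10 and 13 FGFR3 counts, and the difference from DMSO passed the threshold without DMSO replicate 1 (−0.81), under library totals (−1.70) and with ribosomal protein counts (−2.76). Within THZ1, FGFR3 was lower at 24 h than at 4 h (−0.91 ± 0.30, edgeR adjusted p = 0.0134), with all 3 libraries at 24 h below those at 4 h. That call ended under RLE factors (−0.67), under upper-quartile factors (−0.53), by DESeq2 (−0.67) and without THZ1 24 h replicate 1 (−0.82) or 2 (−0.77).

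The libraries within a group also differed by a length slope, the slope of a library's deviation from its group mean on log gene length, which ran from −0.103 to 0.0780. FGFR3 was highest in the library with the highest slope in 5 of 5 groups. Its maximum within a group was at most 2.07 times its minimum. With the slope as a covariate the described log2 fold change for YKL-5-124 24 h over DMSO was 3.39 ± 0.18.

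Genes around FGFR3 gave a local comparison. Within 100 kb of the gene, 5 genes were tested: LETM1, a mitochondrial ion exchanger, TACC3, a spindle protein known as a fusion partner of FGFR3 in cancer, WHSC1, a histone methyltransferase, TMEM129, a ubiquitin ligase of the endoplasmic reticulum, and SLBP, the histone stem-loop binding protein. In YKL-5-124 24 h over DMSO their log2 fold changes were described at −0.18 ± 0.17 for LETM1, 0.09 ± 0.22 for TACC3, −0.38 ± 0.27 for WHSC1, 0.14 ± 0.12 for TMEM129 and −0.45 ± 0.16 for SLBP. LETM1 lies nearest, 2.61 kb beyond the FGFR3 end, and had 69.7 ± 9.79 CPM in the YKL-5-124 24 h libraries and 79.1 ± 11.5 CPM in DMSO. None of the neighbours was described at a difference above 1 log2 unit there. In THZ1 24 h over DMSO, SLBP (−3.24 ± 0.18), TACC3 (−2.22 ± 0.24) and LETM1 (−1.77 ± 0.18) fell while WHSC1 (0.85 ± 0.27) and TMEM129 (0.70 ± 0.12) rose (edgeR adjusted p at most 0.00975). Both rises are smaller than the gap between the medians of all genes under TMM (−0.37) and under library totals (−1.49). In YKL-5-124 4 h over DMSO only TMEM129 of the 5 passed, at 0.60 ± 0.12 (edgeR adjusted p = 0.0372).

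**Figure D2:**
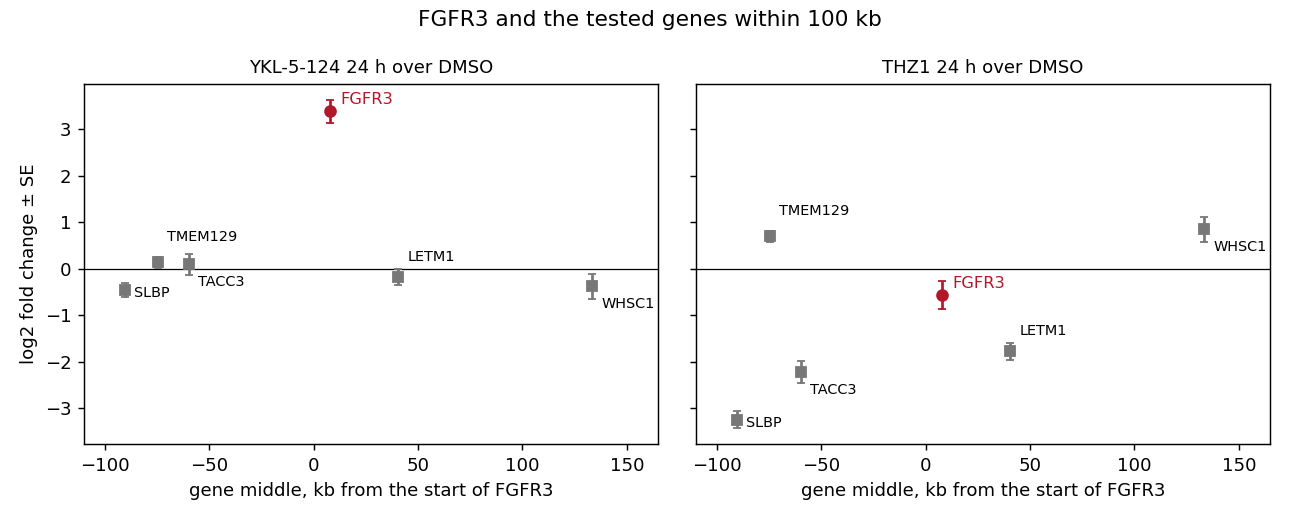
Log2 fold change ± SE (y axis, TMM scaling) of FGFR3 (circle) and the 5 tested genes within 100 kb (squares) by the distance of each gene's middle from the FGFR3 start in kb (x axis). The left panel is YKL-5-124 24 h over DMSO and the right panel THZ1 24 h over DMSO; FGFR3 is at 3.38 on the left with its neighbours between −0.45 and 0.14, and at −0.57 on the right.

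The protein-coding genes whose log2 CPM followed FGFR3 most closely over the 15 libraries, out of 9130 with a mean of at least 5 CPM, were SYNE1 (Pearson's r = 0.983), CABYR (0.962), SLC6A8 (0.960), SESN3 (0.949) and HSPA1A (0.947). These points share libraries and scaling, and the order rests largely on the YKL-5-124 24 h libraries. SYNE1, which encodes a nuclear envelope protein, had 29.5 ± 3.08 CPM there and 6.73 ± 1.98 CPM in DMSO. HSPA1A, an inducible heat shock protein gene, had 175 ± 1.71 CPM there and 47.9 ± 19.8 CPM in DMSO.

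FGFR4 (chromosome 5, 177086886 to 177098144, plus strand), the receptor that answers FGF19 in liver together with the coreceptor KLB, changed most after 24 h of THZ1. It had 71.7, 84.0 and 94.0 CPM in the THZ1 24 h libraries, against 13.5, 12.7 and 11.5 CPM in DMSO, with no overlap. The log2 fold change was 2.73 ± 0.14, a 6.61-fold rise (edgeR adjusted p = 1.25e-10). FGFR4 was the receptor that stayed above DMSO under each scaling at this time, at 1.60 under library totals and 0.54 with ribosomal protein counts, where the medians of all genes were −1.49 and −2.55. At 4 h of THZ1 it had 18.3, 18.9 and 23.1 CPM, all above DMSO, a rise of 0.67 ± 0.13 (edgeR adjusted p = 0.000933) that ended with ribosomal protein counts (0.16). After YKL-5-124 it had 9.41, 8.87 and 8.68 CPM at 24 h, all below DMSO, and 12.9, 14.6 and 15.8 CPM at 4 h, which overlapped DMSO. The described log2 fold change at 24 h was −0.49 ± 0.14, and it was 0.093 with ribosomal protein counts. FGFR4 varied little within groups, with a maximum of 1.08 to 1.31 times the minimum.

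FGFR1 (chromosome 8, 38411138 to 38468834, minus strand), the main receptor of mesenchymal cells and the most abundant one here, had 137, 147 and 202 CPM after 24 h of YKL-5-124 and 159, 266 and 297 CPM after 24 h of THZ1, against 64.0, 125 and 76.5 CPM in DMSO. All libraries of both 24 h groups lay above DMSO. The THZ1 24 h difference was 1.44 ± 0.30 (edgeR adjusted p = 0.000451), but it was 0.30 under library totals and −0.80 with ribosomal protein counts, neither of them called. The described YKL-5-124 24 h difference was 0.87 ± 0.30. At 4 h it had 72.6, 122 and 125 CPM with YKL-5-124 and 95.3, 166 and 144 CPM with THZ1, and both groups overlapped DMSO. Neither passed the test, at 0.26 ± 0.30 (edgeR adjusted p = 0.897) and 0.61 ± 0.30 (edgeR adjusted p = 0.115). The THZ1 4 h value was, however, called in 5 settings, among them without DMSO replicate 2 (0.94), by DESeq2 (0.69) and with the length slope as a covariate (0.63).

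FGFR2 (chromosome 10, 121478334 to 121598458, minus strand), the receptor typical of epithelia, was a low-level transcript in every group. It had 2.41, 1.87 and 1.93 CPM in YKL-5-124 24 h, 1.66, 1.81 and 1.76 CPM in YKL-5-124 4 h, 2.66, 0.919 and 1.98 CPM in THZ1 24 h and 1.61, 1.96 and 1.12 CPM in THZ1 4 h, against 1.82, 1.63 and 1.77 CPM in DMSO. Its interval for THZ1 24 h over DMSO ran from −0.61 to 0.76 on the log2 scale, on 50 counts against 125. It passed no test under TMM, and the THZ1 24 h level was called below DMSO by library totals (−1.05) and by ribosomal protein counts (−2.09).

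FGFRL1 (chromosome 4, 1009936 to 1026897, plus strand), the receptor-like gene without a kinase domain, varied widely within groups, by 2.64 to 4.61 times between libraries of a group. It had 7.0, 8.79 and 20.8 CPM in YKL-5-124 24 h, 4.30, 17.9 and 19.8 CPM in YKL-5-124 4 h, 10.7, 25.3 and 33.2 CPM in THZ1 24 h and 7.17, 18.9 and 15.1 CPM in THZ1 4 h, against 4.53, 19.9 and 6.19 CPM in DMSO. All groups overlapped DMSO, and the largest tested difference, 1.17 ± 0.64 for THZ1 24 h, did not pass (edgeR adjusted p = 0.109). It followed the length slope: FGFRL1 and FGFR1 were highest in the library with the highest slope in 4 of 5 groups and lowest in the library with the lowest slope in 5 of 5. Replicate 1 had the lowest slope in each group. With the slope, taken from these same libraries, as a covariate FGFRL1 was higher in THZ1 24 h than in DMSO, at 1.34 ± 0.27 (edgeR adjusted p = 7.86e-05). Without DMSO replicate 2 it was at 2.11 (called). In all, 7 settings called FGFRL1 higher in THZ1 24 h than in DMSO, these among them. Over the settings with all libraries this difference ranged from −1.13 to 1.56, and it was not called where it lay below 0.

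The make-up of the 4 kinase receptors, as shares of their summed TPM, is independent of the scaling between libraries. FGFR3 took 20.1% ± 1.95 in YKL-5-124 24 h, 4.16% ± 0.518 in YKL-5-124 4 h, 0.666% ± 0.130 in THZ1 24 h and 2.97% ± 0.432 in THZ1 4 h, against 3.45% ± 0.798 in DMSO. FGFR4 took 10.2% ± 1.81 in YKL-5-124 24 h and 47.7% ± 4.74 in THZ1 24 h, against 26.7% ± 6.88 in DMSO. FGFR1 held the largest mean share in each group, from 50.9% ± 5.33 in THZ1 24 h to 68.6% ± 4.45 in YKL-5-124 4 h, with 67.4% ± 7.13 in DMSO. FGFR2 stayed between 0.732% and 2.40% as group means. By mean share the second receptor at 24 h was FGFR3 with YKL-5-124, in the libraries that chose it, and FGFR4 with THZ1. FGFR4 was also second in DMSO, in YKL-5-124 4 h (25.2% ± 3.84) and in THZ1 4 h (27.5% ± 4.94). In 1 library of THZ1 24 h FGFR4 was first, at 53.1%.

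**Figure D3:**
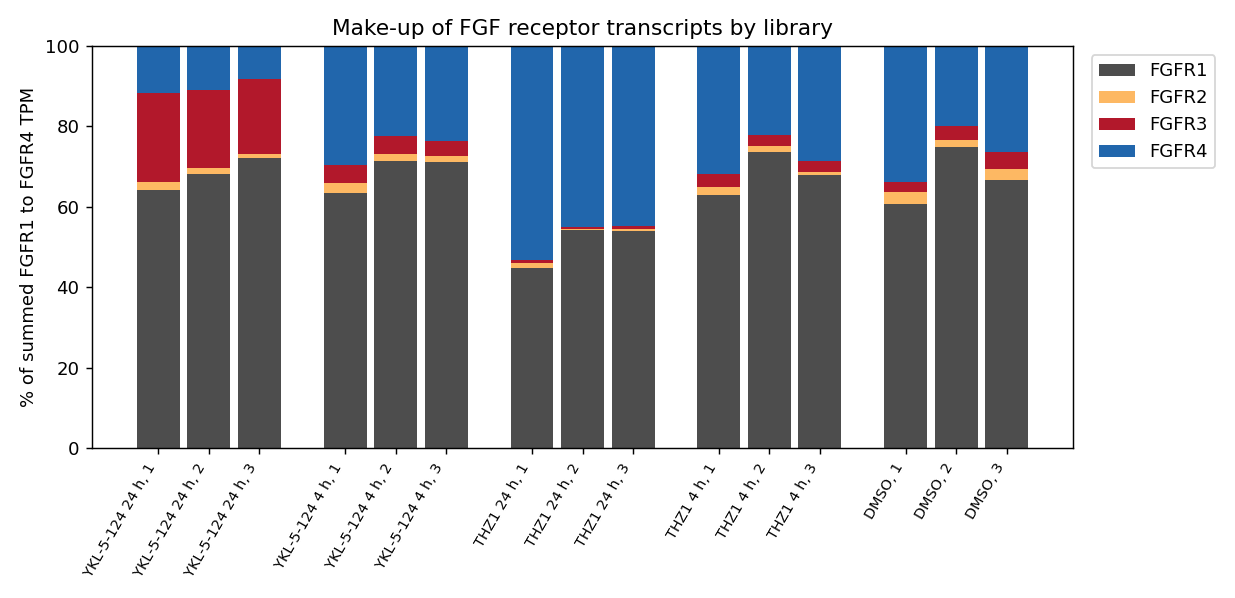
Percent of the summed TPM of FGFR1 to FGFR4 (y axis) taken by each receptor in each library (stacked bars, labelled by group and replicate). FGFR3 takes 18.7% to 22.3% in the YKL-5-124 24 h libraries and FGFR4 takes 44.9% to 53.1% in the THZ1 24 h libraries, while FGFR1 is the largest part in all bars but that of THZ1 24 h replicate 1.

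Among the inhibitors, SPRY2 (chromosome 13, 80335976 to 80340951, minus strand), the most abundant Sprouty, fell at both times of THZ1. It had 9.30, 6.84 and 7.10 CPM in THZ1 24 h and 2.85, 4.93 and 2.70 CPM in THZ1 4 h, against 33.9, 27.4 and 33.1 CPM in DMSO, with no overlap at either time. The fall at 4 h was 9.04-fold (log2 −3.18 ± 0.21, edgeR adjusted p = 1.67e-08), and that at 24 h was 4.07-fold (−2.03 ± 0.20, edgeR adjusted p = 2.1e-07). Over the settings with all libraries these values ranged from −3.64 to −3.09 at 4 h and from −4.20 to −1.63 at 24 h, always called. After YKL-5-124, SPRY2 had 28.4, 30.9 and 28.7 CPM at 24 h and 20.7, 22.4 and 18.5 CPM at 4 h. The 4 h libraries all lay below DMSO, at −0.62 ± 0.18, which did not pass (edgeR adjusted p = 0.184) but was called by DESeq2 (−0.62) and with the length slope as a covariate (−0.61). The 24 h libraries overlapped DMSO, at a described −0.10 ± 0.18.

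SPRY1 (chromosome 4, 123396795 to 123403760, plus strand), a second Sprouty, was rare, so its counts are given. The 3 libraries together held 94 SPRY1 counts in YKL-5-124 24 h, 46 in YKL-5-124 4 h, 20 in THZ1 24 h and 6 in THZ1 4 h (5, 1 and 0 by library), against 129 in DMSO. As ratios of summed CPM-scaled counts to DMSO, with exact 95% intervals for counting error only, this was 0.674 (0.511 to 0.886), 0.340 (0.237 to 0.479), 0.404 (0.239 to 0.650) and 0.0546 (0.0197 to 0.122). Every treated library lay below every DMSO library in all 4 groups. The call passed for THZ1 4 h (log2 −4.13 ± 0.57, edgeR adjusted p = 3.71e-05) and THZ1 24 h (−1.32 ± 0.48, edgeR adjusted p = 0.0205), and not for YKL-5-124 4 h (−1.55 ± 0.43, edgeR adjusted p = 0.143). The YKL-5-124 4 h value was called in 3 settings, among them DESeq2 (−1.56) and the length slope as a covariate (−1.54). Fitted values of so few counts depend on the prior count, and leaving out 1 library moved the THZ1 4 h value between −5.87 (without THZ1 4 h replicate 1) and −3.54 (without THZ1 4 h replicate 3). The THZ1 24 h call ended under RLE factors (−1.004), under upper-quartile factors (−0.93) and without replicate 1 of DMSO (−1.17) and without replicate 1 (−0.99) or 3 (−1.19) of THZ1 24 h.

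SPRY4 (chromosome 5, 142310427 to 142326455, minus strand), an inhibitor of receptor-driven ERK activation, had 18.6, 22.91 and 23.4 CPM in YKL-5-124 24 h, 10.9, 16.4 and 16.4 CPM in YKL-5-124 4 h, 7.97, 4.19 and 5.22 CPM in THZ1 24 h and 4.46, 13.6 and 7.63 CPM in THZ1 4 h, against 12.7, 16.9 and 13.02 CPM in DMSO. The YKL-5-124 24 h libraries all lay above DMSO and the THZ1 24 h libraries all below it. The fall after 24 h of THZ1 was −1.31 ± 0.34 (edgeR adjusted p = 0.00258), and the described YKL-5-124 24 h difference was 0.60 ± 0.31. At 4 h of THZ1 replicate 2 lay within the DMSO range, and the difference of −0.74 ± 0.32 did not pass (edgeR adjusted p = 0.0738). It was called in 6 settings: without that library (−1.23), under library totals (−0.996), with ribosomal protein counts (−1.21), without a filter on low counts (−0.74), with the replicate block (−0.79) and with the length slope as a covariate (−0.80).

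SPRED1 (chromosome 15, 38252326 to 38357249, plus strand), mutated in Legius syndrome, had 26.03, 29.7 and 30.5 CPM in YKL-5-124 24 h and 23.1, 30.1 and 28.8 CPM in YKL-5-124 4 h, against 32.1, 29.8 and 30.8 CPM in DMSO. These groups overlapped, and at 4 h the difference of −0.18 ± 0.15 did not pass (edgeR adjusted p = 0.82). THZ1 gave 9.66, 14.1 and 11.6 CPM at 24 h and 13.1, 17.9 and 17.1 CPM at 4 h, all below DMSO. SPRED1 fell by 1.39 ± 0.16 on the log2 scale at 24 h (edgeR adjusted p = 1.36e-06) and by 0.95 ± 0.16 at 4 h (edgeR adjusted p = 0.000187), and both calls held under each setting tried.

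SPRED2 (chromosome 2, 65310851 to 65432637, minus strand), its paralog, had 16.1, 14.7 and 24.2 CPM in YKL-5-124 24 h and 12.97, 26.2 and 20.6 CPM in YKL-5-124 4 h, against 15.5, 28.2 and 15.7 CPM in DMSO. THZ1 gave 5.43, 5.82 and 7.83 CPM at 24 h and 6.17, 13.2 and 11.5 CPM at 4 h, again all below DMSO. The log2 fold change was −1.64 ± 0.35 at 24 h (edgeR adjusted p = 0.000551) and −0.94 ± 0.33 at 4 h (edgeR adjusted p = 0.0299). The 4 h call ended without replicate 2 of DMSO (−0.60), without replicate 1 (−0.68) or 3 (−1.05) of THZ1 4 h and in a fit of these 2 groups alone (−0.96). SPRED2 was highest in the library with the highest length slope in 5 of 5 groups.

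Counted against DMSO, THZ1 24 h gave 2 of the 10 genes higher and 5 lower, where 32.3% of all genes tested were higher and 44.0% lower, 76.2% in all. All 5 inhibitors fell and FGFR1 and FGFR4 rose. The median of the 10 was −0.94, against −0.37 for all genes. THZ1 4 h gave 1 gene higher (FGFR4) and 4 lower (SPRY1, SPRY2, SPRED1 and SPRED2), where 16.9% of all genes were higher and 25.1% lower, 42.0% in all, and the medians were −0.45 and 0.00. The 7 of 10 called at 24 h of THZ1 and the 5 of 10 at 4 h were near the shares of all genes. YKL-5-124 4 h gave 0 of 10, where 0.0553% of all genes were higher and 0.463% lower, 0.519% in all. DESeq2 called 2 of the 10 there, SPRY1 and SPRY2, where it called 74 of all 14461 genes higher and 296 lower. Unadjusted, 2 of the 10 had an edgeR p under 0.05, for which the share of all genes was not counted. In YKL-5-124 24 h over DMSO, the comparison that picked FGFR3, 2 of the 10 were past the threshold upward and 1 downward, where 8.92% and 12.7% of all genes were, 21.6% in all. By the libraries alone, THZ1 24 h had 2 of the 10 above every DMSO library and 5 below, where 32.5% and 44.7% of all genes were, and THZ1 4 h had 1 and 4, where 21.1% and 28.2% were. YKL-5-124 24 h had 4 above, counting FGFR3, and 2 below, where 17.4% and 22.1% of all genes were. YKL-5-124 4 h had 0 above and 2 below, SPRY1 and SPRY2, where 6.62% and 9.54% were. These comparisons share the DMSO libraries. In bulk RNA a smaller number of cells with a transcript and less of it in each cell cannot be told apart.

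**Figure D4:**
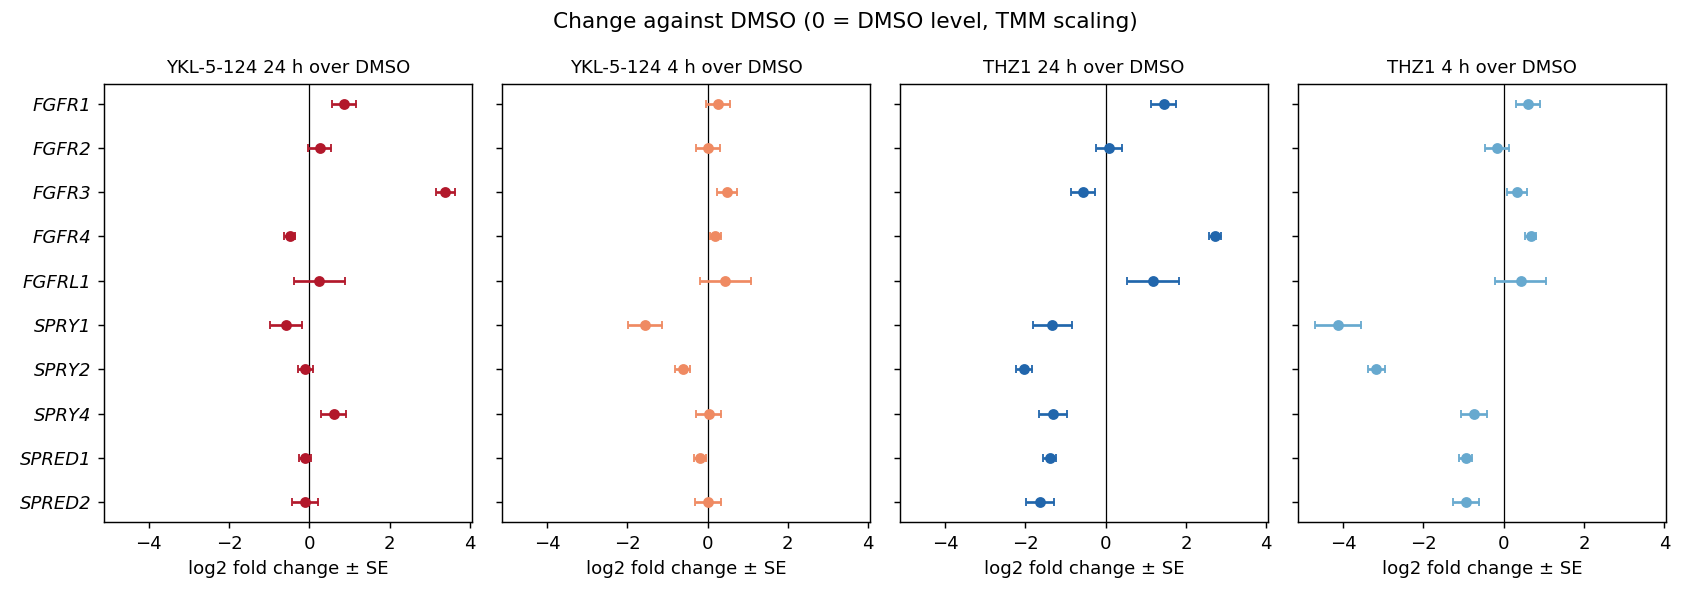
Log2 fold change ± SE (x axis, TMM scaling) of the 10 genes (rows) against DMSO in 4 panels, YKL-5-124 at 24 h and 4 h and THZ1 at 24 h and 4 h; the line at 0 is the DMSO level. FGFR3 stands at 3.38 in the first panel, FGFR4 at 2.73 in the third, and SPRY1 and SPRY2 at −4.13 and −3.18 in the fourth.

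The compounds were compared with each other at the same dose and times. At 24 h, YKL-5-124 over THZ1 gave 5 genes higher, counting FGFR3, which is a description (3.95 ± 0.28), and 1 lower, where 44.1% of all genes were higher and 31.8% lower, 75.9% in all. FGFR4 was 9.26-fold lower with YKL-5-124 (−3.21 ± 0.14, edgeR adjusted p = 3.35e-11), and the difference was −0.45 and not called with ribosomal protein counts. SPRY2 (1.93 ± 0.20, edgeR adjusted p = 3.69e-07), SPRY4 (1.91 ± 0.34, edgeR adjusted p = 0.000107), SPRED1 (1.28 ± 0.16, edgeR adjusted p = 3.21e-06) and SPRED2 (1.53 ± 0.35, edgeR adjusted p = 0.000978) were higher with YKL-5-124. These inhibitor calls held under each setting tried, with SPRY2 between 1.61 and 4.71 over the settings with all libraries. SPRY1 had an interval from −0.30 to 1.78 and FGFR1 one from −1.20 to 0.06, and neither passed. FGFR2, with an interval from −0.49 to 0.86, and FGFRL1, with one from −2.29 to 0.44, did not pass either. SPRY1 and FGFR2 were called higher with YKL-5-124 in 2 settings each. FGFRL1 was called lower with YKL-5-124 in 3 settings, among them the length slope as a covariate (−0.996), and higher with ribosomal protein counts (1.93). FGFR1 was called lower with YKL-5-124 in 9 settings, among them RLE factors (−0.89), and higher with ribosomal protein counts (2.23). By the libraries, 5 of the 10 with YKL-5-124, again counting FGFR3, lay above all of THZ1 and 1 below, where 46.0% and 32.7% of all genes did.

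At 4 h, YKL-5-124 over THZ1 gave 4 genes higher and 1 lower, where 21.9% of all genes were higher and 11.4% lower, 33.3% in all. SPRY2 was 5.89-fold higher with YKL-5-124 (2.56 ± 0.21, edgeR adjusted p = 1.76e-07), SPRY1 differed by 2.58 ± 0.62 (edgeR adjusted p = 0.00517; 46 counts against 6; 4.32 without THZ1 4 h replicate 1 and 2.002 without replicate 3) and SPRED1 by 0.77 ± 0.16 (edgeR adjusted p = 0.00146). SPRED2 differed by 0.95 ± 0.33 (edgeR adjusted p = 0.0353), a call that ended in 6 settings. Among them were the fits without THZ1 4 h replicate 1 (0.69) or 3 (1.06) and without YKL-5-124 4 h replicate 2 (0.70) or 3 (0.93). FGFR4 was lower with YKL-5-124 (−0.48 ± 0.13, edgeR adjusted p = 0.0123), which ended under library totals (−0.23), with ribosomal protein counts (−0.052), with only these groups in the fit (−0.46) and without THZ1 4 h replicate 3 (−0.36) or YKL-5-124 4 h replicate 1 (−0.40). The other receptors did not pass at this time, with intervals from −0.36 to 0.67 for FGFR3, −0.97 to 0.29 for FGFR1, −0.48 to 0.80 for FGFR2 and −1.32 to 1.37 for FGFRL1. SPRY4 at 0.77 ± 0.32 (edgeR adjusted p = 0.0734) did not pass either. It was called in 6 settings: without THZ1 4 h replicate 2 (1.27) or YKL-5-124 4 h replicate 1 (0.94), under library totals (1.009), without a filter on low counts (0.76), with the replicate block (0.81) and with the length slope as a covariate (0.83). By the libraries, 3 of the 10 with YKL-5-124 lay above all of THZ1 and 1 below, where 26.3% and 17.4% of all genes did.

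**Figure D5:**
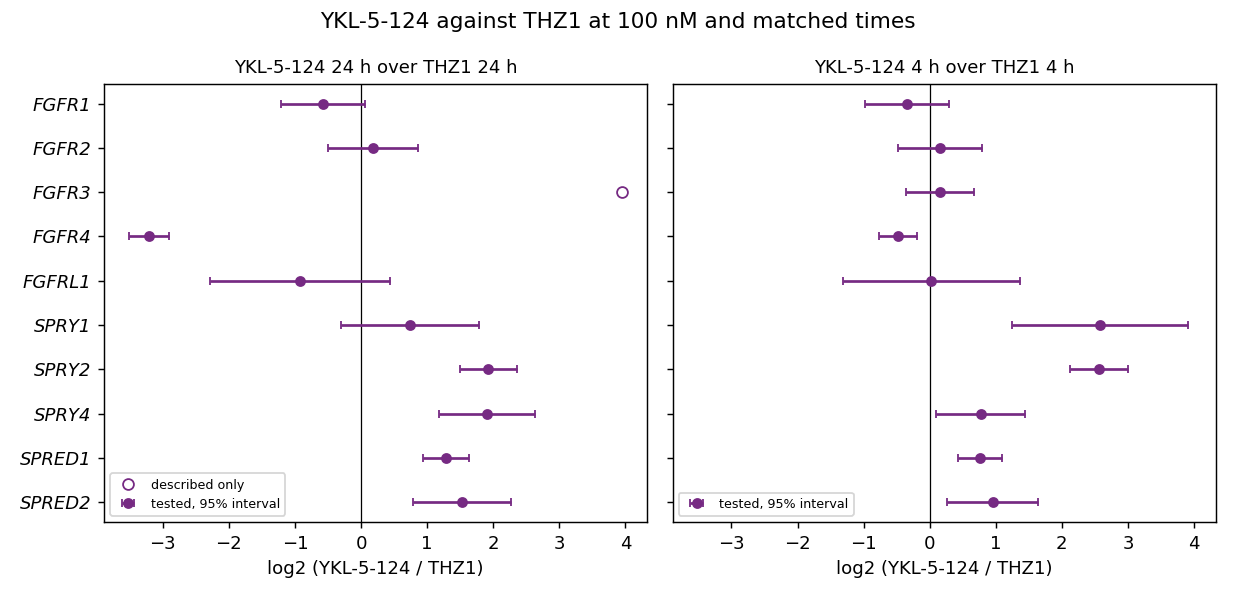
Log2 ratio of YKL-5-124 over THZ1 (x axis, TMM scaling) for the 10 genes (rows) at 24 h (left) and 4 h (right), both at 100 nM; filled points carry 95% intervals from the fit and the open point is FGFR3 at 24 h, which is described only. SPRY2 lies at 1.93 and 2.56 and FGFR4 at −3.21 and −0.48.

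Between the times of THZ1, 24 h over 4 h, 4 genes were higher and 2 lower, where 31.4% of all genes were higher and 35.7% lower, 67.1% in all. FGFR4 rose further (2.05 ± 0.14, edgeR adjusted p = 3.78e-09), though it was 0.38 and not called with ribosomal protein counts. SPRY2 (1.15 ± 0.21, edgeR adjusted p = 0.000208) and SPRY1 (2.80 ± 0.68, edgeR adjusted p = 0.00198; 20 counts against 6) stood higher at 24 h than at 4 h while still below DMSO. SPRY2 was 0.28 under library totals and −0.56 with ribosomal protein counts, neither called, and SPRY1 was 1.22 and not called with ribosomal protein counts. Without THZ1 4 h replicate 1 SPRY1 was at 4.55, and without THZ1 4 h replicate 3 at 2.26. FGFR1 (0.84 ± 0.30, edgeR adjusted p = 0.0215) was −0.033 under library totals, −0.86 with ribosomal protein counts and not called without replicate 1 of THZ1 4 h (0.64) and without replicate 2 (0.80) or 3 (0.70) of THZ1 24 h. SPRED1 was lower at 24 h (−0.44 ± 0.16, edgeR adjusted p = 0.0261), which ended in 8 settings, among them RLE factors (−0.20) and the fits without THZ1 4 h replicate 2 (−0.36) or 3 (−0.35) and without THZ1 24 h replicate 1 (−0.28) or 3 (−0.38). By the libraries, 3 of the 10 lay above all 4 h libraries at 24 h and 1 below, where 31.9% and 36.4% of all genes did.

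Between the times of YKL-5-124, 24 h over 4 h, 1 gene was higher, FGFR3 (2.89 ± 0.23, a description), and 1 lower, FGFR4, where 9.22% of all genes were higher and 11.9% lower, 21.1% in all. FGFR4 differed by −0.68 ± 0.14 (edgeR adjusted p = 0.00256), and by −0.013 with ribosomal protein counts. SPRY2 had an interval from 0.12 to 0.91 and missed the threshold at an adjusted p = 0.0596 by edgeR, and it was called in 7 settings, among them DESeq2 (0.53) and upper-quartile factors (0.58). By the libraries, 6 of the 10, counting FGFR3, which these 24 h libraries chose, lay above all 4 h libraries at 24 h and 1 below, where 19.0% and 22.1% of all genes did.

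The change with time was also compared between the compounds, YKL-5-124 minus THZ1, in a test added after seeing the data. Of the 9 genes tested, 1 was higher (SPRY4) and 1 lower (FGFR4), where 31.0% of all genes were higher and 26.6% lower, 57.6% in all.

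The rest of the pathway was read from lists, chosen like the 10 genes with earlier results of these data known, and is described by counts. Of 22 FGF ligand genes, 4 were tested. FGF5 had 0.690 ± 0.165 CPM in THZ1 24 h and 1.65 ± 0.0773 CPM in YKL-5-124 24 h, against 3.21 ± 0.254 CPM in DMSO, and fell after 24 h of THZ1 (−2.21 ± 0.34, edgeR adjusted p = 2.62e-05). FGF2, basic FGF, had 8.39 ± 2.72 CPM in YKL-5-124 24 h and 16.2 ± 5.22 CPM in DMSO, at a described −0.94 ± 0.30. FGF1, acidic FGF, was higher in THZ1 24 h under TMM (0.56 ± 0.17, edgeR adjusted p = 0.00685) and lower under library totals (−0.56) and with ribosomal protein counts (−1.62).

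Of 16 coreceptor and FGF-binding genes, 10 were tested, and 8 rose and 1 fell in THZ1 24 h over DMSO with a median log2 fold change of 1.77, where 32.3% of all genes were higher and 44.0% lower at a median of −0.37. By library totals the counts were 5 and 1, and by ribosomal protein counts 1 and 3. Of all 14461 genes, library totals called 2266 higher and 9384 lower, and ribosomal protein counts 574 and 11721. KLB, the Klotho coreceptor that works with FGFR4, had 143 counts in the THZ1 24 h libraries and 40 in DMSO, 9.32 times the DMSO level (95% counting interval 6.52 to 13.6). Its mean CPM reached the minimum of 1 for naming only through that group, so this rise is given without a test. KLB was lower in the other groups, with 14 counts in YKL-5-124 24 h (0.324 of DMSO), 5 in YKL-5-124 4 h (0.119 of DMSO, interval 0.0367 to 0.302) and 13 in THZ1 4 h (0.382 of DMSO). At YKL-5-124 4 h KLB passed the test (−2.96 ± 0.53, edgeR adjusted p = 0.0178), but 0 genes of the list were called lower in a fit of those groups alone. The heparan sulfate proteoglycan GPC1 was higher in THZ1 24 h (2.56 ± 0.43, edgeR adjusted p = 5.45e-05), though not called with ribosomal protein counts (0.30), and SDC3 fell (−1.44 ± 0.42, edgeR adjusted p = 0.00622). SDC2, a syndecan, had 17.8 ± 2.04 CPM in YKL-5-124 24 h and 9.67 ± 0.176 CPM in DMSO.

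All 11 adaptor and effector genes were tested. In THZ1 24 h over DMSO, where 76.2% of all genes were called, 3 rose and 8 fell at a median of −1.40 (1 and 9 under library totals, 0 and 10 with ribosomal protein counts). In THZ1 4 h over DMSO, where 42.0% of all genes were called, 3 were higher and 6 lower (0 and 7 under library totals, 0 and 6 with ribosomal protein counts). Of all 14461 genes, library totals called 2266 higher and 9384 lower at 24 h, and ribosomal protein counts 574 and 11721. At 4 h these scalings called 583 and 4631, and 29 and 5512. PIK3R1, the regulatory subunit of PI3 kinase, fell at 24 h (−3.75 ± 0.22, edgeR adjusted p = 5.71e-10) and at 4 h (−2.55 ± 0.19, edgeR adjusted p = 6.32e-08). GAB1, a docking protein, fell at 24 h (−2.64 ± 0.21, edgeR adjusted p = 1.14e-08). FRS3, a relative of FRS2, fell at 4 h (−1.89 ± 0.32, edgeR adjusted p = 0.000261). The phosphatase gene PTPN11 was higher at 24 h (1.89 ± 0.13, edgeR adjusted p = 2.72e-09), but not called with ribosomal protein counts (−0.30). Of the 16 genes of the RAS to ERK cascade, all tested, 3 were higher and 8 lower at 24 h of THZ1 (1 and 14 under library totals, 1 and 15 with ribosomal protein counts) and 5 were higher and 3 lower at 4 h (2 and 5 under library totals, 0 and 7 with ribosomal protein counts), where 76.2% and 42.0% of all genes were called. MAPK3, which encodes ERK1, rose under each scaling at 24 h (2.54 ± 0.14, edgeR adjusted p = 3.15e-10). SHOC2, a scaffold for RAF activation, fell (−3.28 ± 0.14, edgeR adjusted p = 2.77e-11). In YKL-5-124 24 h over DMSO ARAF was described at −1.04 ± 0.13 and BRAF at 0.50 ± 0.14.

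Other transcripts that ERK induces, 15 tested of 16 listed, gave 0 higher and 8 lower in THZ1 4 h over DMSO at a median of −0.84, where 16.9% of all genes were higher and 25.1% lower at a median of 0.00. The ERK phosphatases DUSP5 (6.49 ± 1.19 CPM in THZ1 4 h and 120 ± 6.87 CPM in DMSO; −4.21 ± 0.13, edgeR adjusted p = 2.64e-11) and DUSP6 (−3.63 ± 0.13, edgeR adjusted p = 7.58e-11) fell beside SPRY2. In THZ1 24 h over DMSO, where 76.2% of all genes were called, the list divided, 4 higher and 6 lower (3 and 12 under library totals, 2 and 13 with ribosomal protein counts). Most genes were called lower under those scalings, 9384 of 14461 under library totals and 11721 with ribosomal protein counts, with 2266 and 574 higher. The immediate-early gene EGR1 rose under each scaling (8.06 ± 0.44, edgeR adjusted p = 2.2e-10), while DUSP4 fell (−4.94 ± 0.37, edgeR adjusted p = 8.44e-09). In YKL-5-124 4 h over DMSO 0 of the 15 passed the edgeR test, while 3 were lower by DESeq2, 4 with the length slope as a covariate and 2 without a filter on low counts. Of all 14461 genes, 67 were lower by that edgeR test, 296 by DESeq2 and 690 with the length slope, and 151 of 30731 without a filter. In YKL-5-124 24 h over DMSO 5 were past the threshold upward and 1 downward (8.92% and 12.7% of all genes), with PHLDA1 at a described 0.84 ± 0.14, IER3 at 0.92 ± 0.25 and DUSP4 at −1.08 ± 0.26.

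Of 34 other receptor tyrosine kinase genes, 19 were tested, and 5 were higher and 9 lower in THZ1 24 h over DMSO (2 and 14 under library totals, 0 and 16 with ribosomal protein counts), near the 76.2% called over all genes. Library totals called 2266 of all 14461 genes higher and 9384 lower, and ribosomal protein counts 574 and 11721. PTK7 (2.54 ± 0.15, edgeR adjusted p = 5.08e-10), a pseudokinase, and AXL (1.97 ± 0.27, edgeR adjusted p = 7.02e-06), the GAS6 receptor, were higher, and neither was called with ribosomal protein counts (0.33 and −0.24). EPHB4 (−4.93 ± 0.36, edgeR adjusted p = 6.27e-09), an ephrin receptor, and MET (−2.36 ± 0.15, edgeR adjusted p = 8.19e-10), the hepatocyte growth factor receptor, fell. In YKL-5-124 24 h over DMSO 3 were past the threshold upward and 0 downward (8.92% and 12.7% of all genes), with the collagen receptor DDR2 at a described 1.14 ± 0.21, beside 3.38 for FGFR3.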

How the data were processed

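Total RNA of 15 PATU-8988T libraries was analysed, grouped and numbered as their labels say. The authors deposited raw read counts per Ensembl gene, not normalized. The submitters' processing notes name GRCh38, DESeq2 1.24.0, featureCounts 1.5.0-p3 and STAR 2.6.1d. Whether counting used strand is not given in the sources used, so overlapping genes cannot be told apart by strand. FGFR1, SPRY4 and SPRED2 overlap 2, 3 and 1 other genes, none tested and none above 16 counts in a library.

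From these counts, filterByExpr with a minimum total of 15 and a minimum count of 10 left 14461 of 58676 genes and 99.9% of the counts. Precision follows depth, 15567057 to 22869590 counts per library, and counting intervals cover counting error only. Groups were compared by the quasi-likelihood F test of edgeR 4.0.16 in R 4.3.3, fitted to all 15 libraries with TMM scaling and group as the only factor. P-values were adjusted by Benjamini-Hochberg over the 14461 genes, and 0.05 was the threshold. The SE of a log2 fold change came from the same fit. The test was checked on simulated data. The alternatives were RLE and upper-quartile factors, library totals, ribosomal protein counts (86 genes) as the library size, no filter, a replicate block, each library's length slope as a covariate, only the groups compared, leaving out each library and DESeq2 1.42.0. TPM used the table's exonic lengths. Every pair of libraries within a group differed beyond counting error (chi-square at least 4.14 per degree of freedom).

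The 10 members and the pathway lists were chosen with earlier results of these data known. All 10 members are named. From each list the rule named up to 2 called genes in each direction and comparison with DMSO, the largest changes at a mean CPM of at least 1. It also named the tested genes within 100 kb of FGFR3 and the 5 protein-coding genes with a mean CPM of at least 5 that correlate best with it. The text gives some of those list genes. The test of compound by time was added after seeing the data.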

Additional observations from a re-analysis of the deposited data

Results flagged for a closer look

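The difference between 24 h and 4 h was itself compared between the compounds, as (YKL-5-124 24 h over 4 h) minus (THZ1 24 h over 4 h), a test added after seeing the data, in which 57.6% of all genes passed. Of the 9 genes tested, 2 passed, FGFR4 lower and SPRY4 higher, and FGFR3 was not tested because the YKL-5-124 24 h libraries chose it.

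FGFR4 moved in opposite directions with time, down by 0.68 with YKL-5-124 and up by 2.05 with THZ1 on the log2 scale, and the difference was −2.73 ± 0.19 (SE, quasi-likelihood F test of edgeR, Benjamini-Hochberg adjusted p = 1.91e-08). It was called in 19 of 20 other settings, from −3.05 to −0.40, the exception being ribosomal protein counts as the library size.

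SPRY4 moved by 0.57 with YKL-5-124 and by −0.57 with THZ1, and the difference was 1.14 ± 0.46 (edgeR adjusted p = 0.0456). It was called in 8 of 20 other settings, with values from 0.64 to 3.57, all above 0. It was not called under RLE factors (0.91), under upper-quartile factors (0.83), by DESeq2 (0.91) or in 9 of the 12 fits that leave out 1 library. The lowest was that without THZ1 4 h replicate 2 (0.64).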

How the results depend on the processing

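Over 1199 values of the 10 genes under alternative settings, 990 kept their direction and their side of the threshold, 59 stayed uncalled or within their SE with another sign, 81 became called, 43 lost a call, 16 described values moved by more than their SE (5 of them with another sign) and 10 changed sign with a call in at least 1 of the fits. Of these 10, 4 were called under TMM, 5 were called only under the alternative and 1 is a described value. All 10 came from scaling. Under library totals they were FGFR1 for THZ1 24 h over 4 h (−0.033) and FGFR2 for THZ1 24 h over DMSO (−1.05). With ribosomal protein counts they were FGFR1 for THZ1 24 h over DMSO (−0.80), over THZ1 4 h (−0.86) and for YKL-5-124 24 h over THZ1 24 h (2.23), FGFR2 for THZ1 24 h over DMSO (−2.09) and over 4 h (−1.44), FGFRL1 for YKL-5-124 24 h over THZ1 24 h (1.93), SPRY2 for THZ1 24 h over 4 h (−0.56) and FGFR4 for YKL-5-124 24 h over DMSO (0.093). The cause was not tested. Counts of called genes moved by over 1.5 times in 3 comparisons. For YKL-5-124 4 h over DMSO the count of 0 was 1 without a filter, 2 with the length slope and 2 by DESeq2. Over all 14461 genes the main fit called 8 higher and 67 lower, the length slope 262 and 690, and DESeq2 74 and 296. The fit without a filter called 39 and 151 of 30731. For YKL-5-124 4 h over THZ1 4 h the count of 5 was 3 with ribosomal protein counts and 3 with only the groups compared. Over all genes the main fit called 3172 higher and 1649 lower there, and ribosomal protein counts 4460 and 26. With only the groups compared it was 2853 and 999 of 13237. For YKL-5-124 24 h over 4 h the count of 2 was 7 with ribosomal protein counts, 4 without a filter, 6 with the length slope and 5 with only the groups compared. Here the main fit called 1333 of all genes higher and 1716 lower, ribosomal protein counts 6776 and 131, and the length slope 2595 and 3376. Without a filter it was 1274 and 1628 of 30731, and with only the groups compared 1609 and 1483 of 13755. Leaving out 1 library gave 4 to 6 for THZ1 4 h over DMSO, 6 to 8 for THZ1 24 h over DMSO, 0 to 0 for YKL-5-124 4 h over DMSO, 1 to 3 for YKL-5-124 24 h over DMSO, 3 to 6 for YKL-5-124 4 h over THZ1 4 h, 6 to 7 for YKL-5-124 24 h over THZ1 24 h, 4 to 7 for THZ1 24 h over 4 h and 2 to 2 for YKL-5-124 24 h over 4 h. The low counts behind these ranges were without DMSO replicate 1, YKL-5-124 24 h replicate 2 or YKL-5-124 24 h replicate 3 for YKL-5-124 24 h over DMSO (1 each) and without THZ1 4 h replicate 3 for YKL-5-124 4 h over THZ1 4 h (3). Over all genes these fits gave, in that order, 878 higher and 1215 lower, 875 and 1301, 1000 and 1290, and 2606 and 1018. The main fit gave 1290 and 1839 for YKL-5-124 24 h over DMSO and 3172 and 1649 for YKL-5-124 4 h over THZ1 4 h. Correlations of the deviations of same-numbered libraries ran from −0.47 to 0.53 and were above 0.1 in all 3 pairs of no comparison. All 3 were above 0 for YKL-5-124 4 h over THZ1 4 h (lowest 0.0616) and for THZ1 24 h over 4 h (lowest 0.0887). The replicate 1 pairs correlated above 0 in every comparison, at 0.229 to 0.532, and replicate 1 had the lowest length slope in each group. The main fit did not take the replicate numbers as pairs, and whether same-numbered libraries share a source was not tested. With the replicate block the count for YKL-5-124 24 h over 4 h was 4, and the other counts stayed within 1.5 times. Over all genes the block gave 3078 higher and 3933 lower for THZ1 4 h over DMSO, against 2439 and 3630 without it. For YKL-5-124 24 h over 4 h it gave 1684 and 2148, against 1333 and 1716 without it. Depth limits the low genes, of which the THZ1 libraries held 0 to 11 counts (SPRY1), 9 to 37 counts (FGFR2) and 9 to 46 counts (FGFR3).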
